A study of Homo sapiens with 6 samples.

Results

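The ZNF zinc finger genes of human chromosome 19 are 246 protein-coding genes, of 58735 genes in the count table. They were chosen by annotation alone: biotype protein-coding, chromosome 19, and a symbol made of ZNF, a number and at most 1 further letter. They make up 16.7% of the 1472 protein-coding genes of that chromosome in the table, and the authors' own annotation column places 238 of the 246 in the zf-C2H2 transcription factor family. Polyadenylated RNA had been sequenced in bulk from OE33, an established cell line from a human esophageal adenocarcinoma, in 3 untreated control libraries and 3 libraries of cells exposed to acidified bile salts (ABS). ABS cells spent 20 min in medium without supplements at pH 4.0 with 200 µM bile salts, were washed, and recovered for 6 h in complete medium, as a model of acute reflux injury. The design text describes the 3 libraries of each group as independent biological replicates. All 6 libraries come from 1 line, no group had acid, bile salts or the unsupplemented medium alone, and the treatment of control cells is given only as untreated.

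C2H2 zinc finger proteins read DNA through a row of small folds, the fingers, each holding a zinc ion between cysteines and histidines and joined to the next by a short conserved linker. Many of those encoded on chromosome 19 also carry a KRAB box, which binds the corepressor TRIM28. TRIM28 in turn brings the histone H3 lysine 9 methyltransferase SETDB1 and HP1 proteins, so that KRAB zinc finger proteins are known mainly as silencers, many of them of transposable elements. The genes arose by repeated tandem duplication and lie in clusters of similar neighbours.

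The 6 libraries held 22145676 to 25235686 counts, and 18127 to 19927 genes were detected per library. Levels are CPM, the counts scaled to a common library size with edgeR's TMM factors, and levels of different genes are compared only per kb of gene length. All 5 epithelial markers (*EPCAM*, *CDH1*, *KRT8*, *KRT18* and *KRT19*) lay at 502 CPM or more in every library. Among the markers of fibroblasts, immune cells and endothelium reported here, *COL1A2*, *DCN*, *PTPRC* and *CD3E* had 0 counts throughout, *COL1A1* reached 3.63 CPM, and no other passed 0.393 CPM. The replicate 3 library of each group stood apart from replicates 1 and 2 in several measures below, so values are also given for replicates 1 and 2 alone and for the replicate 3 pair alone. The labels name no batch.

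Protein features were read from the translated coding sequence of each gene in GENCODE release 29. A KRAB A box was found in 209 of the 246 genes (85.0%), against 109 of 263 genes with ZNF symbols on other chromosomes (41.4%). The median number of fingers was 12, against 9 elsewhere. Where 2 neighbouring TGEKP linkers were found in the coding sequence, they stood 84 bases apart in 786 of 1237 cases (63.5%), which is 1 finger with its linker.

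Promoters of some genes of the same cluster closely resemble each other, and the 2 sets printed here each join genes that OE33 cells transcribe with genes that had no count at all. RefSeq promoter sequences on GRCh38.p14, from 250 bases before to 50 bases after the start, were matched for 215 of the 246 genes. In the first set, from the cluster at 19.7 to 24.1 Mb, *ZNF714* and *ZNF431* were transcribed, at 14.3 ± 3.06 and 9.03 ± 1.72 CPM in control (SD, n = 3), while *ZNF91* and *ZNF486* had 0 counts in all 6 libraries. *ZNF91* encodes a KRAB protein known to silence SVA elements. Capitals mark CCAAT on the printed strand, and the windows are chr19:21081953-21082252 (plus strand), chr19:21141790-21142089 (plus), chr19:23395422-23395721 (minus) and chr19:20166964-20167263 (plus).
ZNF714: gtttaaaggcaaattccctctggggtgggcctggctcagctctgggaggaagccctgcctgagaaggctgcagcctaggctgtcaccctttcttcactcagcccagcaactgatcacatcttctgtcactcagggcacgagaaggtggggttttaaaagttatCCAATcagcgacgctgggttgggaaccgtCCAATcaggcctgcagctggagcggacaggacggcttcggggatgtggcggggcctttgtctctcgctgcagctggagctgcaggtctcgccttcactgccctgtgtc
ZNF431: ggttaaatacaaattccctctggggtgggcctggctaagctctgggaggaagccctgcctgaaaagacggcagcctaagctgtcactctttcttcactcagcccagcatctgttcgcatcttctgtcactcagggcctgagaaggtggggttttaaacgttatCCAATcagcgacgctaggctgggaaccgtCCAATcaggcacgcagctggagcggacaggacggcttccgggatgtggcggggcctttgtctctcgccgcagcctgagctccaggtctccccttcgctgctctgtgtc
ZNF91: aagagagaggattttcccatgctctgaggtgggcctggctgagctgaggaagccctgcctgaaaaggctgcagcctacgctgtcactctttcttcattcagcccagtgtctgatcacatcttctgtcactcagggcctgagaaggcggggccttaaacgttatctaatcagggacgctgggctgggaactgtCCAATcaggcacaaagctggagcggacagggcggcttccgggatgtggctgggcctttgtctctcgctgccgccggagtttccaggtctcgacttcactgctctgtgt
ZNF486: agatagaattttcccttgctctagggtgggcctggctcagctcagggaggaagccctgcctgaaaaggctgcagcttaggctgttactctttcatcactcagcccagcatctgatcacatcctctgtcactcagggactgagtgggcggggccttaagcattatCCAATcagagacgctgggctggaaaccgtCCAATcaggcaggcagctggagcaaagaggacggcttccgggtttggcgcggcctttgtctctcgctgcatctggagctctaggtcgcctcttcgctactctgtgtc
The *ZNF714* promoter was 91.0% identical to that of *ZNF431*, 83.1% to that of *ZNF91* and 82.6% to that of *ZNF486*. CCAAT, searched on both strands, was present in all 29 promoters matched in this cluster, in the 20 of genes with 0 counts as well as in the 7 of tested genes. It was present in 53.5% of the 215 promoters of the whole group and in 35.7% of all 27305 promoters in the table. The match is a description of letters and not evidence of binding.

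In the second set, from the cluster at 51.6 to 53.6 Mb, *ZNF845* and *ZNF765* were transcribed, at 5.57 ± 0.980 and 10.5 ± 0.302 CPM in control (SD, n = 3), and *ZNF83* had 0 counts in all 6 libraries. Capitals mark CG dinucleotides, of which these windows hold 28, 25 and 29. The windows are chr19:53333499-53333798 (plus), chr19:53394899-53395198 (plus) and chr19:52690447-52690746 (minus).
ZNF845: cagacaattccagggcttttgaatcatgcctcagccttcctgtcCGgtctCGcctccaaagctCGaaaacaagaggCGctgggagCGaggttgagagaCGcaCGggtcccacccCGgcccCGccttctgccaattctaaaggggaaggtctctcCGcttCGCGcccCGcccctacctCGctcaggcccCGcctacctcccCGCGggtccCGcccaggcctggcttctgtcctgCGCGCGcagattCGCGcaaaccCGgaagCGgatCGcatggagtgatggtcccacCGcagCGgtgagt
ZNF765: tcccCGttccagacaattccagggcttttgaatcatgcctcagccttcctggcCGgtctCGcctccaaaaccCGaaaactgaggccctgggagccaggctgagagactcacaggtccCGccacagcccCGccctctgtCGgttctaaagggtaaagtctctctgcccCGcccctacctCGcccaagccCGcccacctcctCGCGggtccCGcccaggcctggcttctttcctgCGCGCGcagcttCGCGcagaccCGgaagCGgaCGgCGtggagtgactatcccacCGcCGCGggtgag
ZNF83: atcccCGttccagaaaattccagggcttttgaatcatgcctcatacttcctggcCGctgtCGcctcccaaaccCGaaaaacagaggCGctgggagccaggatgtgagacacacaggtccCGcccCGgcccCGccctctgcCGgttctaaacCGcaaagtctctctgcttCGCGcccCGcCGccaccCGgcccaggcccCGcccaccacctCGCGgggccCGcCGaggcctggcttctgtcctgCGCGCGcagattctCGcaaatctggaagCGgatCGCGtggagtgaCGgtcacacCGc
The *ZNF765* promoter was 83.2% identical to that of *ZNF845* and 81.9% to that of *ZNF83*. *ZNF83*, without counts, had as many CG as its 2 transcribed relatives, whereas the 4 promoters of the first set held 10 to 14 CG each. Over the 215 matched promoters the median was 20 CG, against 14 over all promoters in the table. Most promoters of a cluster were little more alike than those of different clusters, with median identities of 51.7% and 50.4% over such pairs. The median was 75.8% in the 19.7 to 24.1 Mb cluster and 52.0% in the 51.6 to 53.6 Mb cluster. Of all 23005 pairs among the 215, 98 were at least 80% identical. Every one of the 98 lay within a single cluster, 83 in the 19.7 to 24.1 Mb cluster and 12 in the 51.6 to 53.6 Mb cluster. In 39 of the 98 pairs both genes had 0 counts, in 16 both were tested, and in 32 a tested gene was paired with a gene at 0.

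Many of these genes had no measurable transcript in OE33 cells, and most of the others stood at low levels. Of the 246, 86 had 0 counts in every library, 40 had 1 to 59 counts in all and fell below the filter on low counts, and 120 (48.8%) passed it. For a gene at 0 in all 142898117 counts, the limit is 3 counts, or 0.0210 CPM over the 6 libraries, and it covers counting error only. In 20 of the 86 over 5% of the 75-base windows recur in another gene, so that a 0 there is uncertain, since reads could have been given to another gene or left out. A control mean of at least 1 CPM was reached by 106 genes (43.1%), against 56.0% of the 19705 other protein-coding genes, 49.8% of the 1226 other protein-coding genes of chromosome 19, and 74.9% of the 263 ZNF genes elsewhere. Among tested genes, the median control level was 0.925 CPM per kb, against 5.60 CPM per kb for other tested protein-coding genes. Summed over all 246 genes, the level was 924, 939 and 1072 CPM in control replicates 1, 2 and 3.

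The highest gene was *ZNF146* (36214602 to 36238774, plus strand), which encodes OZF, a protein made almost wholly of fingers. Its control level was 20.1, 22.1 and 27.7 CPM per kb in replicates 1, 2 and 3 (mean 23.3 ± 3.93, SD, n = 3). *ZNF787* followed with 13.0, 12.4 and 14.8 CPM per kb, below every value of *ZNF146*. *ZNF581* (10.6 ± 1.34), *ZNF296* (9.39 ± 2.15) and *ZNF524* (9.10 ± 0.395) came next. *ZNF865* (7.59 ± 0.665), *ZNF574* (7.24 ± 1.49) and *ZNF579* (6.73 ± 0.116) followed, and *ZNF317* (5.45 ± 0.809) and *ZNF628* (5.17 ± 0.394) closed the 10. Neighbours in this order from *ZNF581* down did not differ beyond the spread of the control libraries, apart from *ZNF524* over *ZNF865* and *ZNF579* over *ZNF317*, whose values did not overlap. Among these 10 only *ZNF317* carried a KRAB A box. *ZNF581* shares exons with *ZNF580* and *CCDC106*, and 15.7% of its 75-base windows recur in another gene, so its counts could be split among them.

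The share of genes with a KRAB box differed between classes of CPM, which follow the number of counts and are not corrected for gene length. A KRAB A box was found in 89.5% of the 86 genes at 0, in 97.5% of the 40 below the filter, in 92.6% of the 54 tested genes under 4 CPM in control, and in 65.2% of the 66 at 4 CPM or more. Median promoter CG counts were 18, 19, 21 and 23 in the same order. The ranges were wide, from 8 to 49 CG among genes at 0 and from 6 to 40 among those at 4 CPM or more. Each of these is a description of annotated features beside the measured level, and genes of a cluster share their origin.

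**Figure D1:**
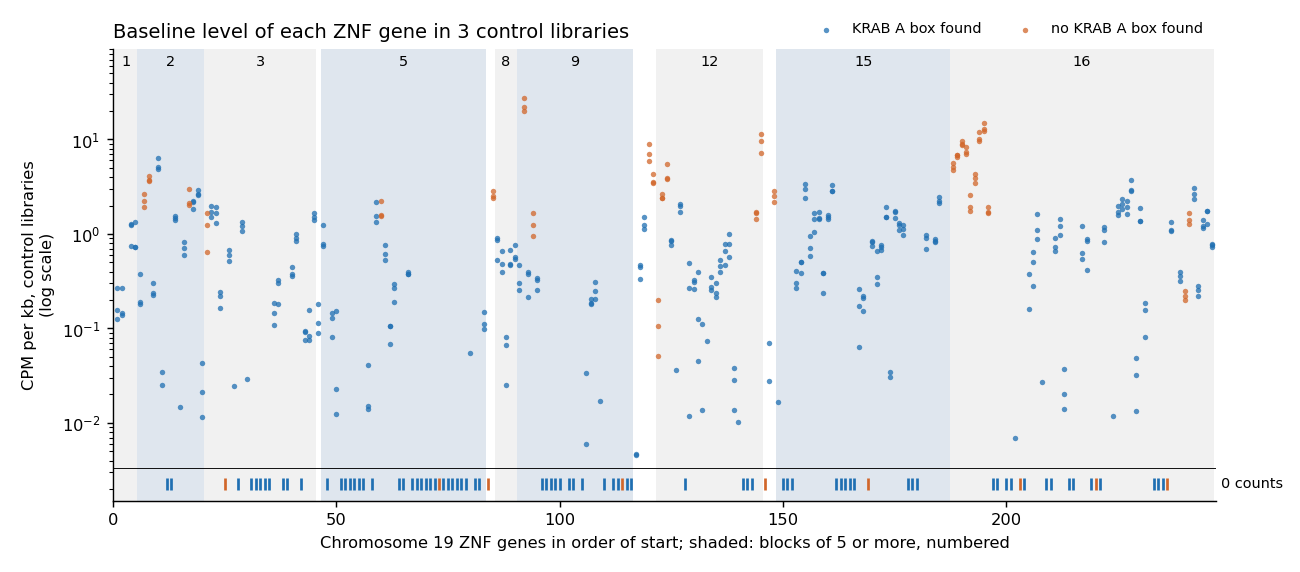
Control level of each chromosome 19 ZNF gene, in CPM per kb on a log scale, against its order along the chromosome from 1 to 246. Each gene has 1 point per control library with counts, blue with and orange without a KRAB A box, and ticks in the lower strip mark the 86 genes at 0 counts in all 6 libraries. Shading marks the 9 clusters of 5 genes or more, and a run of ticks in cluster 5 holds 13 neighbouring genes.

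Along the chromosome, silent and transcribed genes lay in runs. A new cluster was begun wherever neighbouring starts were over 1 Mb apart, which gave 16 clusters, 9 of them with at least 5 genes and together holding 235 of the 246. Control levels per kb of neighbouring genes had a Spearman rho of 0.50 over 245 adjacent pairs, given as a description since neighbours share sequence and library. Cluster 5, with 37 genes from *ZNF101* to *ZNF254* over 4.46 Mb (19668796 to 24129961), had the lowest share of tested genes among the 9. There 25 genes were at 0 and 9 were tested (24.3%).

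Within cluster 5, 13 neighbouring genes from *ZNF43* to *ZNF91* (21804949 to 23395560, 1.59 Mb) had not a single count in any library. They include 4 of the 5 genes at 0 with the most fingers, *ZNF208* with 36, *ZNF729* with 34, *ZNF91* with 31 and *ZNF99* with 26. The other is *ZNF850* with 29, in cluster 9. In the same interval lie 67 other annotated genes, of which 2 had counts, 11 in all. Only 1 of the 67 is protein-coding, and it was at 0. Over the whole table, 33778 of 58735 genes had 0 counts. A further run of 6 genes at 0, from *ZNF93* to *ZNF626*, lay nearer the start of the cluster. *ZNF98* and *ZNF492*, both at 0, share 29.2% and 23.0% of their 75-base windows with each other, so their counts are uncertain. The 0 of *ZNF724* is uncertain too, since 42.8% of its windows recur in another gene. Of its exon length, 44.8% overlaps *AC092329.3* on the same strand. By contrast, *ZNF91* shares 0.170% of its windows with any other gene and *ZNF43* 0.110%.

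Between these silent runs, 5 neighbours in a row were tested, from *ZNF430* to *ZNF738*. *ZNF714* was the highest of cluster 5 at 1.78 ± 0.381 CPM per kb and *ZNF430* next at 1.68, a difference within their spread. *ZNF431* stood at 0.639 CPM per kb, *ZNF738* at 0.251 and *ZNF708* at 0.0931. *ZNF714* was one of the 7 tested genes of cluster 5 with a matched promoter, and its 10 CG equal the median of all 29 in the cluster.

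Other clusters were mixed. In cluster 9, 26 genes from 36.2 to 37.8 Mb, 14 were at 0 and 7 were tested. It holds the highest gene of the group, *ZNF146*, together with runs of 5 genes at 0 from *ZNF382* to *ZNF790* and from *ZNF540* to *ZNF573*. In cluster 3, 25 genes from 11.5 to 12.6 Mb, 10 were at 0, 5 of them in a run from *ZNF433* to *ZNF625*, and *ZNF627* was the highest at 1.73 ± 0.244 CPM per kb. In that run *ZNF625* and *ZNF20* share 83.3% and 53.3% of their exon length with the readthrough gene *ZNF625-ZNF20* or another gene of the same strand, so their 0 counts are uncertain. So is that of *ZNF878* in the same run, with 15.5% of its windows recurring in another gene. *ZNF443* and *ZNF799* of that cluster share 19.9% and 10.9% of their windows with each other. In cluster 15, 39 genes, 12 were at 0 and 21 tested. A run of 9 tested neighbours from *ZNF350* to *ZNF480* there was followed directly by 5 genes at 0, from *ZNF610* to *ZNF578*. *ZNF480* was its highest gene at 3.003 ± 0.274 CPM per kb. *ZNF320*, below the filter, and *ZNF468* share exons, with 73.0% and 53.2% of their windows recurring in other genes, so how their reads were divided is uncertain.

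Cluster 16, the largest, runs from 55.5 to 58.5 Mb with 59 genes, of which 17 were at 0 and 32 tested. Its first 9 genes, *ZNF628* to *ZNF444* (55476332 to 56160893), were all tested and none had a KRAB A box. They include 6 of the 10 highest genes per kb. The next 9 genes, from *ZNF582* to *ZNF805*, were all untested, with 51 counts in total over the 6 libraries. Cluster 2 (15 genes, 10 tested, *ZNF317* highest) and cluster 12 (24 genes, 15 tested, *ZNF296* highest) held the fewest genes at 0 among clusters of over 10 genes, with 2 and 4. In the 2 small clusters 1 and 8, of 5 genes each, none was at 0 and 4 were tested. *ZNF57* led cluster 1 at 1.08 ± 0.288 CPM per kb and *ZNF302* led cluster 8 at 0.767 ± 0.204.

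After ABS, none of the 120 tested genes passed the edgeR threshold of an adjusted p under 0.05, against 60 of all 13768 tested genes (0.436%), 51 of them higher (0.37%) and 9 lower (0.0654%). The smallest adjusted p among them was 0.110, for *ZNF888*. At an unadjusted edgeR p under 0.05 there were 13 higher and 1 lower, shares of tested genes to be read against 5.61% and 4.14% over all tested genes. With DESeq2, 1 gene, *ZNF888*, passed the threshold, against 1.94% of all tested genes, and with limma-voom 0, against 0.45%. A term for the replicate 3 libraries gave 3 (*ZNF776*, *ZNF784* and *ZNF888*), against 3.38% of all tested genes. Leaving out control replicate 3 gave 2 (*ZNF146* and *ZNF574*), against 3.1% of all. Replicates 1 and 2 alone gave 13 higher and 1 lower, where 1813 of all genes (13.2%) passed. In bulk libraries, fewer cells of a kind and less RNA per cell cannot be told apart.

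Small differences were more often positive than negative. The log2 fold change was above 0 in 82 of 120 genes (68.3%), against 49% of all tested genes, with a median of 0.13 against -0.0037 for all. The 3 ABS values lay wholly above the 3 control values in 18 genes (15%, against 7.57% of all tested genes) and wholly below in 2 (1.67%, against 6.95%). The 206 tested ZNF genes of other chromosomes had a median of 0.067, with 135 above 0 (65.5%). Of these 206, 34 lay wholly above control (16.5%) and 9 wholly below (4.37%), so that the excess was not particular to chromosome 19. The 656 other tested protein-coding genes of chromosome 19 had a median of -0.061, with 199 above 0 (30.3%). The median of the 120 was 0.18 in replicates 1 and 2 alone and 0.043 in the replicate 3 pair alone. It includes only genes that passed the filter on low counts, and is a description with no test.

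Over all libraries, positive differences were more frequent among genes with higher levels. A division at a mean of 4 CPM over all libraries was chosen after the values were seen. At 4 CPM or more, 56 of 69 genes had a log2 fold change above 0 (81.2%) and the median was 0.17. Other protein-coding genes at 4 CPM or more had 48.7% above 0 and a median of -0.0039, and those at 4 to 16 CPM 45.2% and -0.028. Below 4 CPM, 26 of 51 tested ZNF genes were above 0 and the median was 0.013. In replicates 1 and 2 alone the 2 medians were 0.23 and 0.10, and in the replicate 3 pair alone they were alike, 0.046 and 0.040. By class of mean level, 22 of 25 genes at 4 to 8 CPM, 21 of 28 at 8 to 16 and 13 of 16 at 16 or more were above 0. The medians of these 3 classes were 0.17, 0.17 and 0.16, and those of other protein-coding genes -0.041, -0.019 and -0.00080. ZNF genes of other chromosomes lay between, with medians of 0.070, 0.068 and 0.096 in the same classes.

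**Figure D2:**
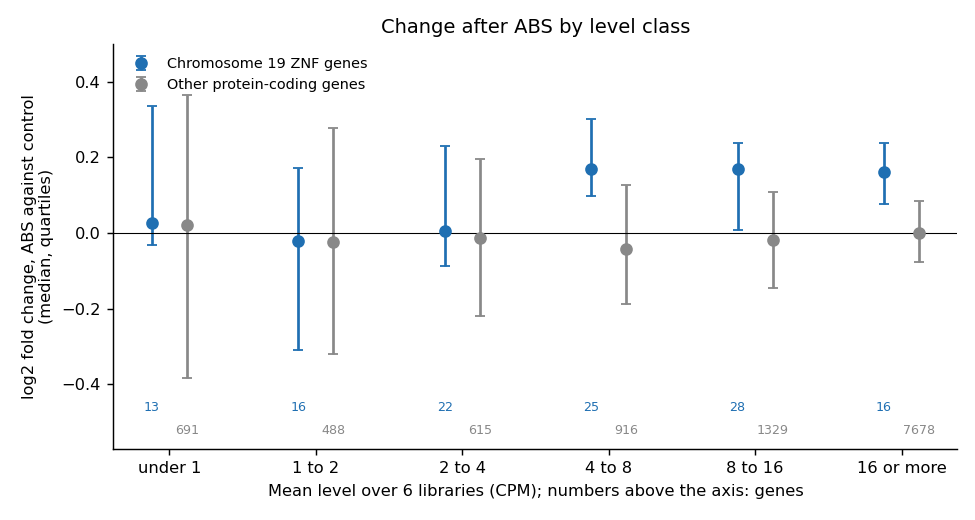
Median log2 fold change, ABS against control, with quartiles as bars, in 6 classes of mean CPM over all libraries, for tested chromosome 19 ZNF genes (blue) and other tested protein-coding genes (grey). Numbers above the axis count the genes in each class. From 4 CPM up the 3 ZNF medians lie at 0.16 to 0.17, and below 4 CPM both sets lie near 0.

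Library by library, control replicates 1 and 2 were low and the other 4 libraries high. For the 69 genes at 4 CPM or more, the median deviation from the gene's own mean on the log2 scale was -0.16 and -0.16 in control replicates 1 and 2 and 0.053 in control replicate 3. In ABS replicates 1, 2 and 3 it was 0.060, 0.081 and 0.12. Control replicate 3 thus lay next to ABS replicate 1. The 206 tested ZNF genes of other chromosomes, at all levels, lay at -0.10, -0.066 and 0.070 in control replicates 1, 2 and 3. In ABS replicates 1, 2 and 3 they lay at 0.030, -0.017 and 0.10. The summed level of all 246 genes was 1065, 1081 and 1123 CPM in the ABS libraries, against 924, 939 and 1072 in control. The groups overlapped in this sum, since control replicate 3 lay above ABS replicate 1.

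The share of counts from mitochondrially encoded genes was 2.48% and 2.57% in control replicates 1 and 2 and 1.91% in control replicate 3, and 2.07%, 2.26% and 2.09% in ABS replicates 1, 2 and 3, so that the 2 libraries with the lowest ZNF levels had the 2 highest shares. The number of genes detected did not follow the ZNF levels over all libraries and was highest in the replicate 3 libraries, at 19362 in control and 19927 in ABS, against 18127 to 18942 in the others. The part of either in the differences was not tested.

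**Figure D3:**
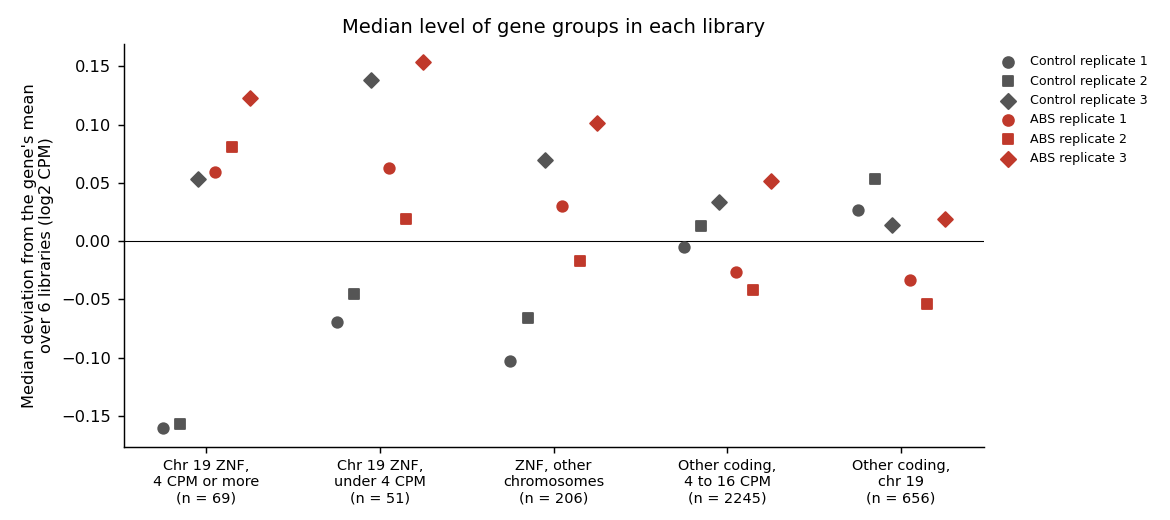
Median deviation of log2 CPM from each gene's mean over 6 libraries, for 5 sets of tested genes, with control libraries in grey and ABS libraries in red, and circles, squares and diamonds for replicates 1, 2 and 3. In the 69 ZNF genes at 4 CPM or more, control replicates 1 and 2 lie at -0.16 and control replicate 3 at 0.053, next to the ABS libraries.

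Cluster 15 was the only cluster of 5 genes or more whose summed level did not overlap between groups. Its 39 genes summed to 143, 142 and 158 CPM in control and to 173, 184 and 182 CPM in ABS, so that the highest control library lay below the lowest ABS library. The means were 148 ± 8.68 and 180 ± 5.65 CPM (SD, n = 3 each). Of its 21 tested genes, 19 had a log2 fold change above 0 and 6 had ABS values wholly above control. Genes wholly above control were 7.57% of all tested genes. There were 2 among the 7 tested genes of cluster 9 and 7 among the 32 of cluster 16. Clusters 2, 8 and 12 had 1 each, and clusters 1, 3 and 5 had 0. The median log2 fold change of cluster 15 was 0.26, and it was 0.29 in replicates 1 and 2 alone and 0.29 in the replicate 3 pair alone. The 7 tested genes of cluster 9 had a similar median of 0.23, with 6 above 0, and 0.37 in replicates 1 and 2 alone and 0.20 in the replicate 3 pair. The 10 of cluster 2 had a median of 0.14, the 15 of cluster 12 a median of 0.12, the 32 of cluster 16 a median of 0.10, the 9 of cluster 5 a median of 0.019 and the 11 of cluster 3 a median of -0.0036. The small clusters 1 and 8, with 4 tested genes each, had medians of -0.053 and -0.15. The cluster was singled out after its values were seen, and its difference from the other clusters was not tested.

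**Figure D4:**
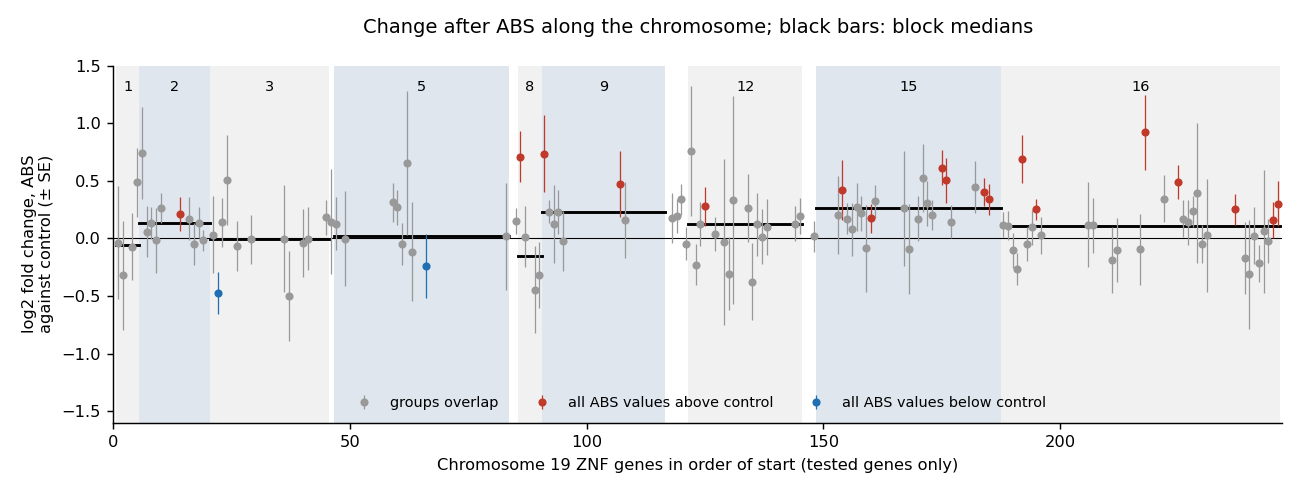
Fitted log2 fold change, ABS against control, with its standard error for the 120 tested genes in order along chromosome 19. Red and blue mark genes whose ABS values lie wholly above (18) or below (2) control, grey the others, and black bars the cluster medians. In cluster 15, 19 of 21 points lie above 0.

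The gene with the smallest p, *ZNF888* (52904417 to 52923481, minus strand), lies in cluster 15. Its levels were 6.59, 7.51 and 7.78 CPM in control and 11.9, 9.75 and 11.8 CPM in ABS replicates 1, 2 and 3. All ABS values were above all control values. The log2 fold change was 0.61 ± 0.15 (SE; edgeR, adjusted p = 0.110), and it was 0.61 and 0.60 in replicates 1 and 2 and in the replicate 3 pair. Its exons overlap the antisense gene *AC010487.2*, and 6.54% of its windows recur elsewhere. Its neighbour *ZNF816* stood at 4.12, 3.64 and 4.30 CPM in control and 5.45, 6.56 and 5.14 CPM in ABS, a log2 fold change of 0.50 ± 0.19 (edgeR, adjusted p = 0.382), and shares exons with a readthrough gene, *ZNF816-ZNF321P*.

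*ZNF765*, whose promoter is printed above, was the steadiest in control among the named genes of cluster 15. Its levels were 10.5, 10.2 and 10.8 CPM in control and 14.1, 13.1 and 14.4 CPM in ABS, with no overlap (log2 fold change 0.40 ± 0.12, edgeR, adjusted p = 0.218). *ZNF845*, with a similar promoter, stood at 4.46, 5.92 and 6.33 CPM in control and 5.28, 9.22 and 8.24 CPM in ABS, where the groups overlapped (0.44 ± 0.22, edgeR, adjusted p = 0.564). *ZNF83*, the third of that set, had 0 counts in both groups. *ZNF615*, at 1.90 to 2.503 CPM in control and 2.67 to 3.35 CPM in ABS, did not overlap either (0.42 ± 0.26, edgeR, adjusted p = 0.655). *ZNF480*, the highest of the cluster per kb, stood at 13.7, 13.8 and 16.05 CPM in control and 17.7, 15.04 and 21.6 CPM in ABS, which overlapped (0.32 ± 0.14, edgeR, adjusted p = 0.5003).

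Outside cluster 15, *ZNF416* (57571566 to 57578927, minus strand) had the largest difference among genes with a mean of at least 2 CPM whose groups did not overlap. It stood at 1.06, 2.28 and 2.15 CPM in control and 2.74, 4.24 and 3.41 CPM in ABS (log2 fold change 0.92 ± 0.32, edgeR, adjusted p = 0.314). Its exons overlap *ZIK1* on the other strand, and the strand setting of the counting is not given in the sources used here. *ZIK1* itself had 0 counts in all 6 libraries. *ZNF302*, at 2.68, 4.55 and 4.34 CPM in control, was at 6.25, 6.21 and 6.48 CPM in ABS (0.71 ± 0.22, edgeR, adjusted p = 0.227). The SD of *ZNF302* was 0.143 CPM over the ABS libraries and 1.03 CPM over the control libraries.

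*ZNF784*, one of the 9 genes without a KRAB A box at the start of cluster 16, stood at 3.996, 3.64 and 5.38 CPM in control and 5.73, 7.17 and 8.12 CPM in ABS (0.69 ± 0.21, edgeR, adjusted p = 0.222). *ZNF776* stood at 9.39, 10.7 and 8.81 CPM in control and 14.6, 14.7 and 11.4 CPM in ABS (0.49 ± 0.15, edgeR, adjusted p = 0.214). In both, all ABS values lay above all control values, by little in the replicate 3 library of *ZNF776*. *ZNF274*, which is known to bind zinc finger genes themselves and to recruit TRIM28 and SETDB1 there, was at 9.18, 9.06 and 11.1 CPM in control and 11.6, 11.5 and 11.8 CPM in ABS (0.25 ± 0.14, edgeR, adjusted p = 0.592). It was chosen for its role after its values were seen.

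2 genes lay wholly lower after ABS. *ZNF627* stood at 5.74, 7.60 and 6.58 CPM in control and 4.68, 4.46 and 5.18 CPM in ABS (log2 fold change -0.47 ± 0.18, edgeR, adjusted p = 0.384), and its exons overlap *ACP5* on the other strand. *ZNF100*, in cluster 5, stood at 2.47, 2.503 and 2.65 CPM in control and 2.42, 1.62 and 2.39 CPM in ABS (-0.24 ± 0.28, edgeR, adjusted p = 0.852), where only ABS replicate 2 was far from the others.

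**Figure D5:**
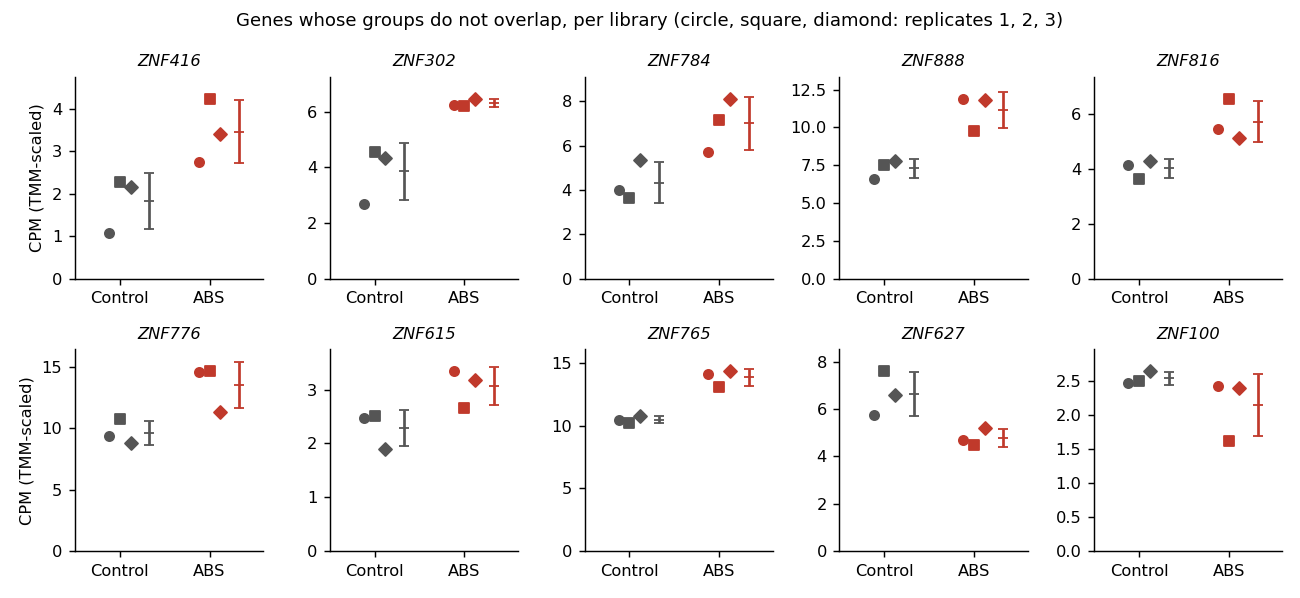
CPM in each library for the 8 genes with the largest rise and the 2 with a fall among those of at least 2 CPM whose groups do not overlap, with bars for the mean and SD of 3 libraries. Each axis starts at 0 and has its own scale. The control libraries of *ZNF302* spread from 2.68 to 4.55 CPM, and its ABS libraries from 6.21 to 6.48.

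Among the 10 genes highest per kb, differences were small. *ZNF146* stood at 83.2, 91.6 and 115 CPM in control and 112, 113 and 115 CPM in ABS (log2 fold change 0.23 ± 0.10, edgeR, adjusted p = 0.490), and control replicate 3 lay within the ABS range. *ZNF787* stood at 47.6, 45.4 and 54.4 CPM in control and 62.8, 57.9 and 55.1 CPM in ABS (0.25 ± 0.09, edgeR, adjusted p = 0.342), with no overlap. *ZNF574* was 27.6, 32.4 and 41.3 CPM in control and 37.5, 46.95 and 43.9 CPM in ABS (0.34 ± 0.14, edgeR, adjusted p = 0.428). *ZNF865* went the other way, with 28.1, 29.9 and 33.3 CPM in control and 21.4, 23.0 and 31.4 CPM in ABS (-0.27 ± 0.14, edgeR, adjusted p = 0.585). In *ZNF865* the ABS replicate 3 value lay within the control range. The other 6 had log2 fold changes from -0.10 for *ZNF524* to 0.26 for *ZNF317*, with overlapping groups.

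In cluster 5, neither transcribed gene with a printed promoter passed the edgeR threshold. With replicates 1 and 2 only, *ZNF714* did (log2 fold change 0.39, edgeR, adjusted p = 0.0497), as did *ZNF430* of the same cluster. In that setting 13.2% of all tested genes passed. *ZNF714* stood at 12.3, 12.7 and 17.8 CPM in control and 16.3, 16.5 and 18.96 CPM in ABS (log2 fold change 0.27 ± 0.15), and *ZNF431* at 7.57, 8.60 and 10.9 CPM in control and 8.03, 7.69 and 10.5 CPM in ABS (-0.05 ± 0.18). Both were highest in the replicate 3 libraries, in both genes the groups overlapped, and the difference between them was not tested. *ZNF57*, the highest of cluster 1, had 1.74, 2.87 and 2.94 CPM in control and 2.62, 2.40 and 2.16 CPM in ABS, with a log2 fold change of -0.07 ± 0.29.

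The median log2 fold change was 0.14 over the 93 tested genes with a KRAB A box and 0.11 over the 27 without, in a split made after the values were seen. In replicates 1 and 2 alone it was 0.21 and 0.070, and in the replicate 3 pair alone 0.040 and 0.046. Genes that share no exon with another gene had a median of 0.15 over 51, against 0.12 over the 69 that do. Those with at most 5% of windows shared had a median of 0.14 over 93, against 0.034 over the 27 with more.

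The partners of KRAB proteins were all transcribed. Of 24 listed corepressor genes, 24 were tested and none passed the edgeR threshold. At an unadjusted p under 0.05 there was 1, against 9.75% of all tested genes, 2 had ABS values wholly above control (8.33%, against 7.57%), and the median log2 fold change was -0.037. *TRIM28*, the direct partner of the KRAB box, itself at 58544091 to 58550722 on chromosome 19, stood at 676, 596 and 687 CPM in control and 684, 698 and 692 CPM in ABS (0.08 ± 0.07, edgeR, adjusted p = 0.779). *SETDB1* stood at 24.5, 22.5 and 21.96 CPM in control and 26.9, 26.1 and 26.6 CPM in ABS, with no overlap (0.21 ± 0.10, edgeR, adjusted p = 0.516). *SMARCAD1*, a chromatin remodeller that binds TRIM28, did not overlap either (0.21 ± 0.10), while *CBX5*, which encodes HP1 alpha (-0.17 ± 0.08), and the DNA methyltransferase gene *DNMT3B* (-0.38 ± 0.17) had values that overlapped.

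Of 17 genes of chromosome 19 with other zinc finger names, 4 were tested and none passed. The smallest p was that of *ZFP36*, which encodes an RNA-binding protein that destabilises mRNAs and is no C2H2 factor, with 36.3 ± 6.30 CPM in control and 45.3 ± 2.05 CPM in ABS (log2 fold change 0.32 ± 0.12, edgeR, adjusted p = 0.345). Of 32 ZNF pseudogenes and non-coding ZNF genes of the chromosome, 18 had 0 counts in every library and 1 was tested.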

How the data were processed

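The table the authors deposited gives unnormalised counts for every gene in each of 6 libraries. Per the submitters' processing notes, HISAT2 2.0.5 and featureCounts 1.5.0-p3 were used with GRCh38; annotation release, strand setting and treatment of multiply mapping reads are not given in the sources used here. Coordinates of all 246 genes were identical in GENCODE release 29. Genes passing filterByExpr (minimum count 10, minimum total 15) were tested with edgeR 4.0.16 (R 4.3.3), TMM scaling and a quasi-likelihood F-test on group alone, with Benjamini-Hochberg adjustment over 13768 genes at 0.05; the SE is the log2 fold change divided by the square root of F. The procedure was tested on simulated data. DESeq2 1.42.0, limma 3.58.1 (voom), other scalings, filters, designs and left-out libraries were alternatives. Replicate numbers were not taken as pairs: deviations of same-numbered libraries correlated at 0.043, 0.033 and 0.17 over genes. Libraries of unlike number correlated at -0.12 to 0.093. The replicate 3 pair had the highest value of all, and these correlations do not decide whether libraries were paired.

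Genes and lists were chosen with earlier results of these data known. Named genes were those past the threshold, the 10 highest in control per kb, the 8 largest log2 fold changes in each direction among non-overlapping genes of 2 CPM or more on average, the highest gene of each cluster of 5 or more, the 5 genes at 0 with the most fingers, and of each list the 4 smallest p. Other genes were chosen after their values were seen. Fingers and KRAB A boxes (9 fixed residues, at most 2 mismatches) were counted in translated GENCODE coding sequences, in place of the RefSeq proteins first intended. Promoter identity is the share of identical positions in a global alignment.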

Additional observations from a re-analysis of the deposited data

How the results depend on the processing

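The count of all genes past the edgeR threshold, 60, was 35 under scaling by library totals alone, 409 with no filter on low counts, 267 with DESeq2, 465 with a term for the replicate 3 libraries and 1813 with replicates 1 and 2 only, and 12 to 438 when 1 library was left out (438 without control replicate 3, 273 without ABS replicate 3, 12 to 18 without any of the other 4). The count of chromosome 19 ZNF genes called higher, 0, was 1 with DESeq2 (*ZNF888*), 2 without a filter (*ZNF784* and *ZNF888*), 3 with the replicate 3 term (also *ZNF776*), 13 with replicates 1 and 2 only, and 0 to 2 with 1 library left out (*ZNF146* and *ZNF574*, without control replicate 3). Of all genes tested, 1.94% were called with DESeq2, 1.64% without a filter and 3.38% with the replicate 3 term. The share was 13.2% with replicates 1 and 2 only and 3.1% without control replicate 3. With replicates 1 and 2 only, 1 chromosome 19 ZNF gene was called lower (*ZNF865*). The median log2 fold change of the tested genes stayed between 0.091 and 0.18 over all alternatives, the highest with replicates 1 and 2 only and the lowest without control replicate 1. In 2 alternatives added after the data were seen, it was 0.147 without genes that share exons and 0.138 without genes that share over 5% of windows.

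With the replicate number as a block, 350 of all genes (2.54%) were called and 1 chromosome 19 ZNF gene, *ZNF888* (log2 fold change 0.61). Since the labels do not pair the libraries, this is given only as an alternative.

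Log2 fold changes near 0 changed sign in 4 named genes when 1 library was left out, over ranges of -0.080 to 0.20 for *ZNF581* and -0.25 to 0.024 for *ZNF524* (both turning without ABS replicate 1), -0.0096 to 0.22 for *ZNF579* (turning without ABS replicate 3) and -0.28 to 0.056 for *ZNF57* (turning without control replicate 2 or 3 or ABS replicate 3). With replicates 1 and 2 only, *ZNF579* was at -0.0047 and *ZNF57* at 0.13. Allowing 2 Mb between neighbouring starts gave 9 clusters in place of 16. With 3 libraries per group, the SE of the ZNF genes named by the rule was 0.09 to 0.32, of the order of the median difference.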
